A study of Saccharomyces cerevisiae with 25 samples.

Results

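*TIP1*, *TIR1*, *TIR2*, *TIR3*, *TIR4*, *DAN1* and *DAN4* encode mannoproteins of the yeast cell wall. These 7 genes were taken by name from the 6713 genes listed for each library. They were chosen by the level of *TIP1*, which was higher in the *OLE1(FAR)* strain than in its wild type, so the levels behind that contrast are described below without a test. Of the 7, 6 had an estimated count above 0 in every library and entered the fits, and *DAN1* did not.

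Cell wall mannoproteins are secreted proteins rich in serine and threonine that are heavily glycosylated and, in this group, joined to the wall through a GPI anchor. *TIP1*, *TIR1* and *TIR2* are known as genes induced by cold shock. The *TIR* and *DAN* genes are known from cells grown without oxygen, where the zinc cluster activator Upc2 turns them on and their products take the place of the aerobic wall proteins Cwp1 and Cwp2. With oxygen, the repressors Rox1 and Mot3, acting with the Tup1-Cyc8 complex, hold many of these genes down.

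Poly(A) RNA was sequenced from 25 cultures of 5 haploid strains, with 5 cultures per strain. All strains descend from BY4741, a MATa laboratory strain of the S288C background that lacks *HIS3*, *LEU2*, *MET17* and *URA3* function, and all were grown with glucose in synthetic medium. The *RGT2(V539I)* strain carries a missense change in a glucose sensor, and the *OAF1(L63S)* strain a missense change in the transcription factor that turns on fatty acid oxidation genes. The *OLE1(FAR)* strain carries an A-to-G change between *SDS23* and *OLE1*, the gene of the only fatty acid desaturase of yeast. Each of these changes puts the allele of the vineyard strain RM into BY. The wild types had been through the same allele exchange, which in YFA1130 restored an untagged *FAA4* and in YFA1131 returned *RGT2*(BY) to a strain where KanMX had replaced it. *OAF1(L63S)* and *OLE1(FAR)* were compared with YFA1130, and *RGT2(V539I)* with YFA1131. Cultures had been harvested in 3 batches, and *OLE1(FAR)* had no culture in harvest batch 1. Replicates are numbered by RNA isolation batch, each of which held 1 culture of every strain. Each genotype was a single numbered strain grown as separate precultures, so p-values measure the spread between cultures and not between independent edits.

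Estimated counts summed to between 9216531 and 14644996 per library. Transcripts of *LEU2*, *MET17* and *URA3* were listed at 0 in all 25 libraries. *STE2*, the pheromone receptor gene of MATa cells, was at 1077 to 1323 CPM (counts divided by library size after TMM scaling), and *STE3*, its MATα counterpart, at 2.18 to 6.25 CPM. *MFA1*, a pheromone gene of MATa cells, was listed at 0 throughout, and *MF(ALPHA)1*, which MATa cells are known not to express, was at 0.33 to 2.37 CPM. Levels of bulk RNA do not tell fewer cells with a transcript from less of it per cell.

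Libraries labelled *OLE1(FAR)* replicate 2 and *OAF1(L63S)* replicate 5 stood apart from the others of their labels at genes outside the family. *POX1*, an oleate-induced oxidase gene, was at 28.4 CPM in the library labelled *OLE1(FAR)* replicate 2 and at 0.42 to 2.00 CPM in the others of that label. In the library labelled *OAF1(L63S)* replicate 5 it was at 1.58 CPM, against 17 to 22.8 CPM in the others. *IZH4*, a membrane protein gene, was at 2.43 CPM in the first and 47.6 CPM in the second of these libraries. The remaining libraries held *IZH4* at 45.3 to 50.7 CPM for *OLE1(FAR)* and at 2.63 to 3.67 CPM for *OAF1(L63S)*. Each of the pair thus resembled the other label at both genes, and results that rest on them are given with and without them. At *HXT4*, a glucose transporter gene under the control of the Rgt2 sensor, *RGT2(V539I)* rose against YFA1131 by 1.61 on the log2 scale (SE 0.11, adjusted p = 8.72e-08 from edgeR).

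In the R64 assembly, *TIP1* (YBR067C) lies on chromosome II from 372103 to 372735, on the reverse strand. *TIR1* (YER011W) lies on chromosome V from 175248 to 176012, and *TIR3* (YIL011W) on chromosome IX from 333727 to 334536. *TIR4* (YOR009W, 344335 to 345798) and *TIR2* (YOR010C, 346195 to 346950) are neighbours on chromosome XV, and *TIR2* is followed by *AUS1*, a sterol importer gene. *DAN1* (YJR150C, 708811 to 709707) and *DAN4* (YJR151C, 712255 to 715740) are neighbours on chromosome X. Each has a single coding exon. The encoded proteins run from 210 residues for *TIP1* to 1161 residues for *DAN4*. Serine and threonine make up 31.4% of the codons of *TIP1*, 30.7% of *TIR1*, 33.9% of *TIR2*, 34.6% of *TIR3*, 41.3% of *TIR4*, 34.2% of *DAN1* and 49.4% of *DAN4*, against a median of 13.8% over 5681 genes. Only 29 of those genes exceed 40%, among them *TIR4* and *DAN4*. Reads of *TIR1* and *TIR2* could be confused over 13 stretches of 31 bases that both genes hold, 1.77% and 1.79% of such stretches, and the other 5 genes share none with any gene. The counts of all 7 genes were whole numbers in every library.

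The members differed in the known elements of hypoxic control that lie upstream of them. Within 500 bp upstream of the start codon, on either strand, the anaerobic AR1 element (TCGTTCAG or TCGTTTAG) occurs at *DAN1*, *DAN4* and *TIR4*, and in 3.16% of 5986 such windows. The sites are shown because AR1 is an element through which genes of this family are known to be induced without oxygen. *TIP1*, *TIR1*, *TIR2* and *TIR3* have none. Each line below is 30 bases of the RefSeq R64 sequence, read 5′ to 3′ on the strand of the gene, with the element in capitals. At *TIR4* the element is in the reverse orientation.
*TIR4*, chrXV:344101-344130: gaacagggttcCTAAACGAtgcatttctaa
*DAN1*, chrX:710101-710130: tattttatctgTCGTTTAGcacatatggcc
*DAN1*, chrX:709869-709898: ctaacaaaacaTCGTTCAGgaacagagaat
*DAN4*, chrX:715918-715947: taagatctccaTCGTTCAGgaactgtaaaa

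The sterol response element TCGTATA, a shorter sequence that Upc2 and Ecm22 bind, occurs upstream of *DAN1*, *DAN4* and *TIR3*, and in 7% of windows. A core of the Rox1 site, ATTGTTC, occurs upstream of *TIP1*, *TIR2*, *TIR3* and *DAN4*, and in 11.8% of windows. *TIP1*'s single match among these searches is that core, 296 bases before its start codon, in capitals here.
*TIP1*, chrII:373013-373042: ggaaataattgATTGTTCcgggaaatgtgt
The low-oxygen element ACTCAACAA, known from the *OLE1* promoter where Mga2 acts through it, was matched upstream of no member and in 0.384% of windows. An Oaf1-type oleate element, CGG followed after 15 to 18 bases by CCG, was likewise matched upstream of no member and in 8.82% of windows. The sites edited in *OLE1(FAR)* and *OAF1(L63S)* lie on other chromosomes than *TIP1*, and are shown because the contrasts below are between these alleles. On the reference strand, with the base that differs in capitals, the BY sequence around them reads as follows.
FAR, chrVII:398069-398093: agcgggcccaacAaaggcgcttatc
L63S, chrI:48739-48763: gaaatagaatatTgtttgtctgcca

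Per length, *TIP1* far exceeded the other members. Its mean over the 25 libraries was 772 CPM per kb of coding sequence, and its estimated count ran from 3261 to 10001 per library. It ranked 205 among 5571 genes ordered by this measure. The next member, *TIR4*, was at 14.7 CPM per kb, and *TIP1* was 52.5-fold higher than it. *TIR2* followed at 12.3 CPM per kb, *TIR3* at 7.91 and *DAN4* at 6.08. These 4 genes lay close together, and the ranges over libraries of each overlapped those of its neighbours in the order. *TIR1* was at 1.13 CPM per kb, with 4 to 20 counts per library, and *DAN1* at 0.191 CPM per kb. *DAN1* had no count in 5 of the 25 libraries and at most 7 in any. The remaining tested members ranked between 4625 (*TIR4*) and 5470 (*TIR1*), near the lower end of the order, and *DAN1* was not ranked.

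**Figure D1:**
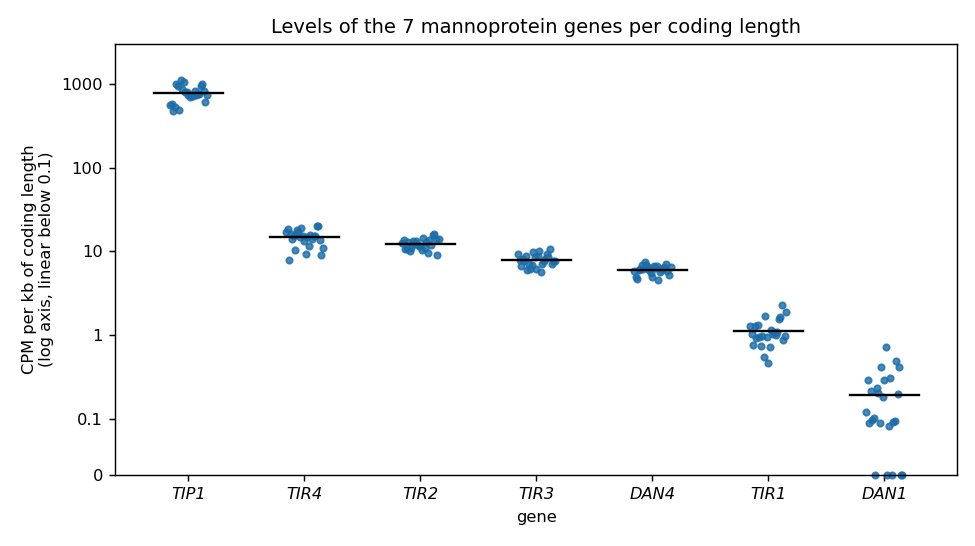
CPM per kb of coding length (log axis, linear below 0.1) for the 7 genes, with 1 point for each of 25 libraries and a bar at the mean. *TIP1* lies above all others at a mean of 772 CPM per kb, and *DAN1*, with 5 libraries at 0, lies lowest.

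*TIP1* was at 454, 527, 469, 480 and 474 CPM in replicates 1 to 5 of YFA1130. In YFA1131 it was at 595, 627, 525, 384 and 464 CPM. The *RGT2(V539I)* libraries held it at 505, 514, 467, 447 and 473 CPM. These strains overlapped, with YFA1131 the most variable of the 3 (SD 98.5 CPM against 27.6 in YFA1130 and 27.5 in *RGT2(V539I)*). In *OAF1(L63S)* replicates 1 to 4, *TIP1* was at 358, 360, 297 and 338 CPM, and in the library labelled replicate 5 at 633 CPM. Replicates 1 to 4 lay below every library of the 3 preceding strains, and the library labelled replicate 5 lay above every one. How many of all genes do the same was not counted, so this is a description. In *OLE1(FAR)* it was at 595, 702, 548 and 669 CPM in replicates 1, 3, 4 and 5, and at 306 CPM in the library labelled replicate 2. Those 4 libraries overlapped YFA1131. Their difference from YFA1130 is the one by which *TIP1* was picked, so it is a description.

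**Figure D2:**
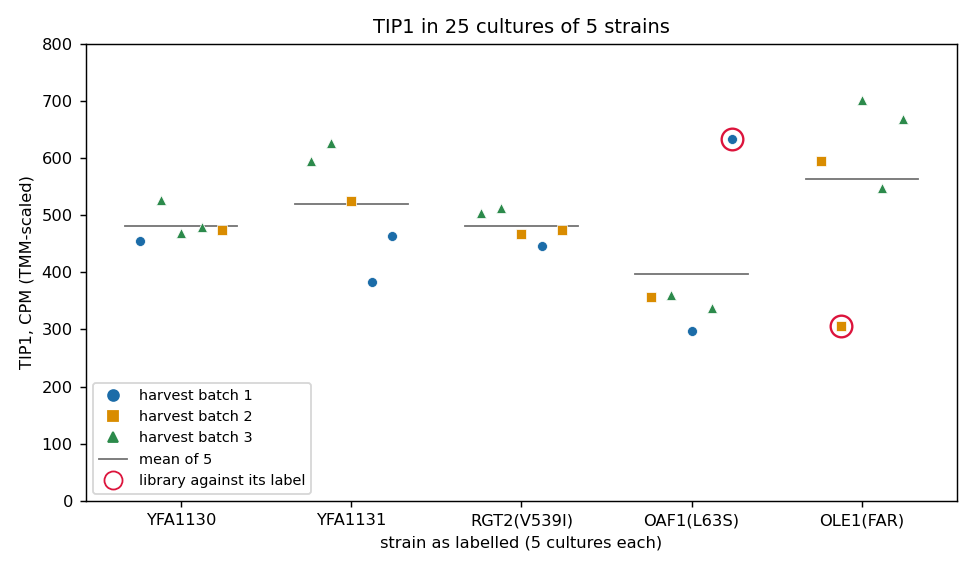
*TIP1* in CPM for each of 25 cultures by labelled strain, with symbols for harvest batch, a line at each mean of 5, and rings around the libraries that went against their labels. Among *OAF1(L63S)* the ringed library at 633 CPM lies above the other 4 (297 to 360 CPM), and among *OLE1(FAR)* the ringed library at 306 CPM lies below the other 4 (548 to 702 CPM).

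The mean of *TIP1* was 564 ± 156 CPM in *OLE1(FAR)*, 519 ± 98.5 in YFA1131, 481 ± 27.5 in *RGT2(V539I)*, 481 ± 27.6 in YFA1130 and 397 ± 134 in *OAF1(L63S)* (SD, n = 5 each). Neighbouring strains in that order differed by less than the larger of their SDs. Without the 2 libraries against their labels, the mean was 628 ± 69.9 CPM in *OLE1(FAR)* and 338 ± 29.2 in *OAF1(L63S)* (SD, n = 4 each).

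*TIP1* fell in the *OAF1(L63S)* strain. Its log2 fold change against YFA1130 was -0.46 (SE, standard error, 0.062), with an adjusted p of 0.000219 by the quasi-likelihood test in edgeR after Benjamini-Hochberg correction, a level 0.727 times that of the wild type. It was lower in 4 of 5 replicate pairs, the exception being the pair with the library labelled replicate 5. No other member was called in this contrast, so 1 of 6 tested members passed the 10% FDR where 1.17% of 5713 genes did (0.613% lower). This contrast shares YFA1130 with the one that picked *TIP1*. With both libraries against their labels left out, *TIP1* was still lower, at -0.48 (edgeR, adjusted p = 5.54e-06). In harvest batch 3 alone, which holds neither of them, it was -0.50 (adjusted p = 0.0888, edgeR), in 2 *OAF1(L63S)* cultures and 3 of YFA1130. With all libraries kept and no surrogate variables in the fit, it was -0.28 and adjusted p was 1.00 (edgeR). An exact permutation test of the log2 CPM gave p = 0.143 with all 10 libraries (two-sided, a difference of -0.33). Without the library labelled replicate 5 the exact test gave p = 0.00794, the smallest value 4 libraries against 5 allow, at a difference of -0.51. The 2 groups did not then overlap, which held for 1.47% of genes tested.

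The *TIR* genes and *DAN4* were close to their wild-type levels in *OAF1(L63S)*. Fitted log2 fold changes were -0.03 for *TIR1* (SE 0.30), 0.05 for *TIR2* (SE 0.12), 0.11 for *TIR3* (SE 0.15), 0.08 for *TIR4* (SE 0.096) and -0.11 for *DAN4* (SE 0.083). None passed the FDR, and adjusted p was 0.998 for *TIR1* and 0.996 for each of the others (edgeR). The 95% intervals (1.96 standard errors) ran from -0.62 to 0.55 for *TIR1* and from -0.11 to 0.27 for *TIR4*, so a change in *TIR1* of the size seen for *TIP1* would lie inside its interval.

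In *OLE1(FAR)*, the contrast by which the family was picked, *TIP1* had a log2 fold change of 0.44 (SE 0.064) against YFA1130, 1.36 times the wild-type level and higher in 4 of 5 pairs. Without the libraries against their labels it was 0.40 (SE 0.050), and in harvest batch 3 alone 0.38 (SE 0.086). *DAN4*, the longest of the proteins, was at 24.1, 21.4, 26.2, 24 and 22.8 CPM in replicates 1 to 5 of *OLE1(FAR)* and at 23.6, 16.1, 20.05, 21.6 and 21.4 CPM in YFA1130. It was higher in 5 of 5 pairs, with overlapping groups, and the share of all genes higher in every pair was not counted. Without the library labelled replicate 2, the mean of *DAN4* in *OLE1(FAR)* was 24.3 ± 1.42 CPM (SD, n = 4). In YFA1130 it was 20.6 ± 2.80 CPM (SD, n = 5). With all libraries the log2 fold change of *DAN4* was 0.32 (SE 0.084). The other log2 fold changes were -0.42 for *TIR1* (SE 0.32), 0.03 for *TIR2* (SE 0.13), -0.09 for *TIR3* (SE 0.15) and 0.10 for *TIR4* (SE 0.098).

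*RGT2(V539I)* and YFA1131 did not differ at any member past the FDR. There 0 of 6 members were called by edgeR, with 1.07% of all genes called, and none had an unadjusted p under 0.05, which 6.7% of genes had. DESeq2 called none of the members either. For *TIP1* the log2 fold change was 0.04 (95% interval -0.09 to 0.16), and it was -0.12 without surrogate variables. An exact two-sided permutation test of its log2 CPM gave p = 0.516 over the 10 libraries. *TIR1* had the lowest value, -0.63 (SE 0.31, adjusted p = 0.784 from edgeR), at 4 to 14 counts in *RGT2(V539I)* and 7 to 20 counts in YFA1131.

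The wild types were compared because they give the size of a difference between strains with no edited variant. Again 0 of 6 members were called by edgeR, with 0.158% of genes called, none had an unadjusted p under 0.05 (9.73% of genes), and DESeq2 called none. *TIP1* had a log2 fold change of 0.03 in YFA1131 against YFA1130 (95% interval -0.08 to 0.15), which was -0.06 with no replicate block. *TIR2* was the nearest to a call, at 0.24 (SE 0.12, adjusted p = 0.526 from edgeR). The same exact permutation test of *TIP1* as for *RGT2(V539I)* gave p = 0.516 here as well, over 252 arrangements.

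**Figure D3:**
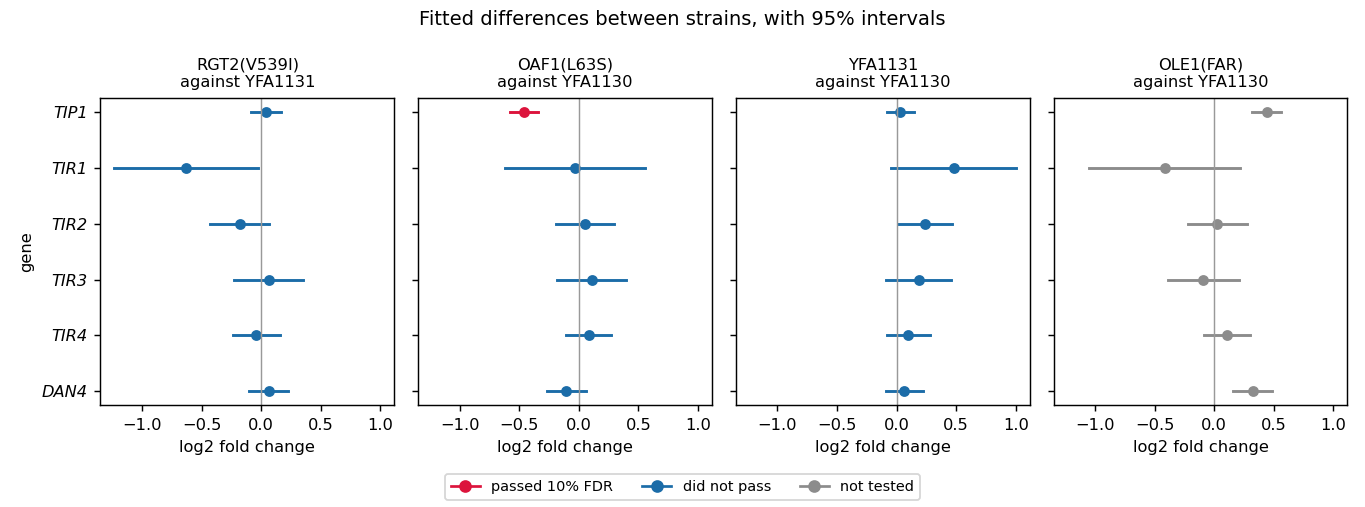
Fitted log2 fold changes of the 6 tested genes in 4 contrasts between strains, with 95% intervals (horizontal lines). *TIP1* in *OAF1(L63S)* against YFA1130, at -0.46, is the single tested difference that passed the 10% FDR, and the *OLE1(FAR)* contrast is drawn in grey because it picked the family and was not tested.

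With all libraries kept, levels of the *TIR* genes and of *DAN4* overlapped between all 5 strains. *TIR4* means ran from 21 CPM in *RGT2(V539I)* to 22.1 CPM in *OLE1(FAR)*, with SDs of 2.40 to 7.65 CPM. *TIR2* means ran from 8.95 CPM in YFA1130 to 10.4 CPM in YFA1131, and *TIR3* means from 5.69 CPM in *OLE1(FAR)* to 7.05 CPM in *RGT2(V539I)*. For *TIR4* and *TIR2* these means differed by less than the largest SD within a strain, and for *TIR3* the largest SD was 1.29 CPM. *DAN4* had means of 19.3 ± 2.33 CPM in *OAF1(L63S)* and 23.7 ± 1.80 CPM in *OLE1(FAR)* (SD, n = 5 each), the lowest and highest of the strains. Without the libraries against their labels, *DAN4* ran from 16.4 to 20.9 CPM in *OAF1(L63S)* and from 22.8 to 26.2 CPM in *OLE1(FAR)* (n = 4 each). The overlap of *DAN4* between these strains thus rested on those libraries. This is a description, since *OLE1(FAR)* is the strain by which the family was picked. The share of all genes that separate in this way was not counted. *TIR1* stayed at 0.35 to 1.77 CPM. *DAN1* counts summed to 8 over the 5 libraries of *OAF1(L63S)*, 7 in *OLE1(FAR)*, 16 in *RGT2(V539I)*, 6 in YFA1130 and 11 in YFA1131. At such counts no fold is given for *DAN1*.

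**Figure D4:**
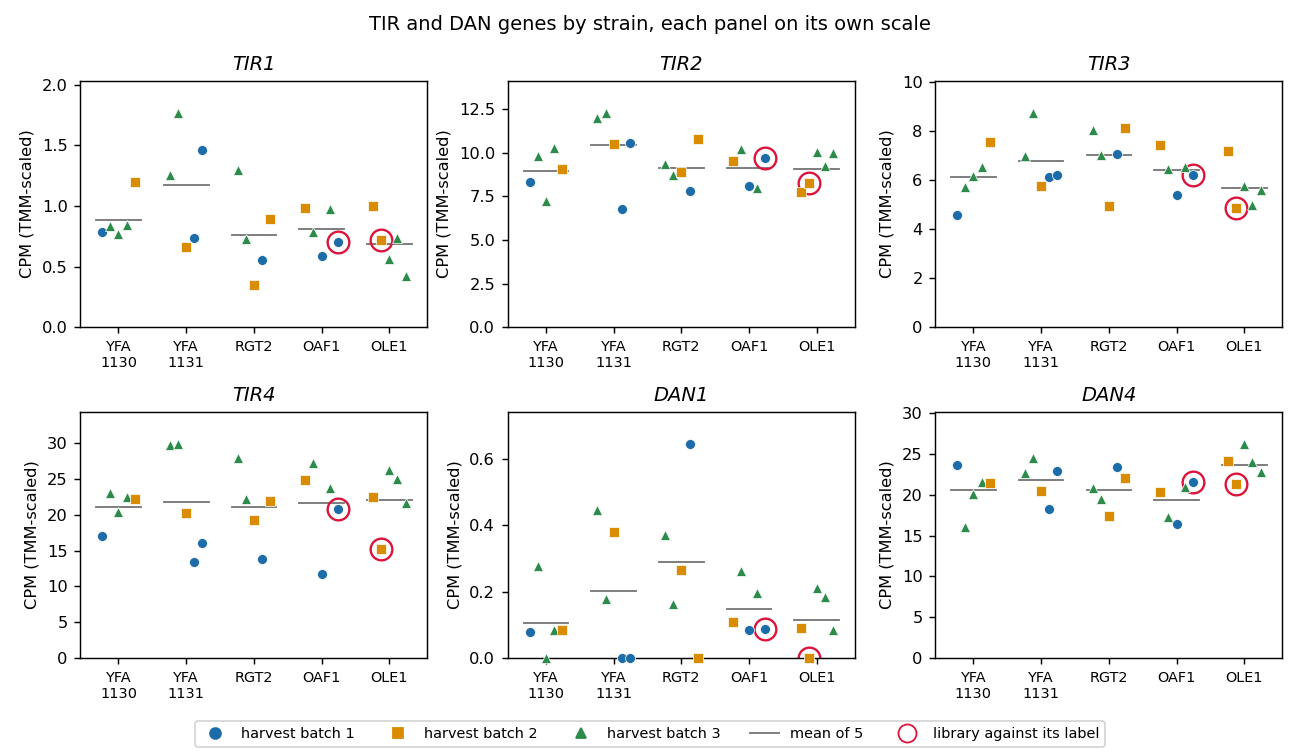
CPM of the *TIR* and *DAN* genes in each of 25 cultures by labelled strain (RGT2, OAF1 and OLE1 stand for the edited strains), each panel on its own linear scale from 0, with symbols for harvest batch, lines at means of 5 and rings around the libraries against their labels. In the *TIR4* panel the harvest batch 1 cultures of YFA1130, YFA1131 and *RGT2(V539I)*, at 13.4 to 17.1 CPM, are the lowest of their strains.

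*TIR4* was lower in harvest batch 1 than later in the wild types and *RGT2(V539I)*. In YFA1130 it was at 17.1 CPM in the culture of harvest batch 1, at 22.1 CPM in that of batch 2 and at 20.4, 22.5 and 23 CPM in those of batch 3. YFA1131 had 13.4 and 16.05 CPM in batch 1, 20.2 CPM in batch 2 and 29.7 and 29.9 CPM in batch 3. *RGT2(V539I)* had 13.8 CPM in batch 1, 19.3 and 21.9 CPM in batch 2 and 22.2 and 27.9 CPM in batch 3. In each of these 3 strains every culture of batch 1 lay below every later one. The share of all genes ordered in this way was not counted, and differences between harvests were common, as given below. The 4 cultures of batch 1 averaged 15.1 ± 1.78 CPM, the 4 of batch 2 20.9 ± 1.37 CPM and the 7 of batch 3 25.1 ± 3.94 CPM (SD). Among the remaining strains, *OAF1(L63S)* replicate 3 of batch 1 had 11.7 CPM, the lowest of all 25 libraries, and the library labelled replicate 5 of the same batch had 20.9 CPM.

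*TIP1* in the same 3 strains averaged 437 ± 36.3 CPM in batch 1 (n = 4), 485 ± 27.0 CPM in batch 2 (n = 4) and 531 ± 58.8 CPM in batch 3 (n = 7, SD). Its lowest culture in each strain was of batch 1. Within YFA1131 the difference was widest, with 384 and 464 CPM in batch 1 and 595 and 627 CPM in batch 3.

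An exact permutation of harvest batches within these strains, an alternative chosen after seeing the data, compared batch 1 with both later batches. By this exact test the mean difference in log2 CPM, later minus batch 1, was 0.64 for *TIR4* (p = 0.004 of 250 arrangements, the smallest they can give) and 0.23 for *TIP1* (p = 0.008), two-sided. Adjusted over all 5713 genes these were 0.0241 and 0.0386, and both genes were higher later in 3 of 3 strains. Such differences were common, since 34.6% of genes had an exact p of 0.05 or less and 26.8% were higher later in all 3 strains. *TIR2* (0.27, p = 0.056) and *TIR1* (0.24, p = 0.484) were also higher later in 3 of 3 strains, *TIR3* in 2 (0.22, p = 0.18) and *DAN4* in 1 (-0.12, p = 0.284), none of them past 0.05 in the exact test.

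The fit over all 25 libraries gave another sign for *TIP1*. There its log2 difference, later minus batch 1, was -0.80 (SE 0.093, adjusted p = 0.000108 from edgeR), and it was the 1 member of 6 called where 1.49% of genes were. The library labelled *OAF1(L63S)* replicate 5, with 633 CPM of *TIP1*, is in harvest batch 1. The library labelled *OLE1(FAR)* replicate 2, with 306 CPM, is in batch 2. With both left out the difference was 0.09 (adjusted p = 0.428, edgeR), and 0.22 (adjusted p = 0.00152) when surrogate variables were also left out. *TIR4* in those 3 fits was at 0.19 (adjusted p = 0.746), 0.78 (adjusted p = 0.0019) and 0.73 (adjusted p = 5.86e-06, edgeR). In the last, *TIP1* and *TIR4* were the 2 members called, where 37.8% of genes were. With 1 library left out at a time, the *TIP1* difference ran from -0.89 to -0.70 over 25 fits (adjusted p at most 0.00774, edgeR). Leaving out either library against its label alone thus did not turn the sign. With all libraries kept and no surrogate variables, the *TIP1* difference was positive. Its sign thus depended on the libraries and terms in the fit. The values without both libraries against their labels have the sign of the exact test. Between batches 3 and 2 no member of 6 was called by edgeR, with 0.0175% of genes called, none had an unadjusted p under 0.05 (4.29% of genes), and DESeq2 called none.

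**Figure D5:**
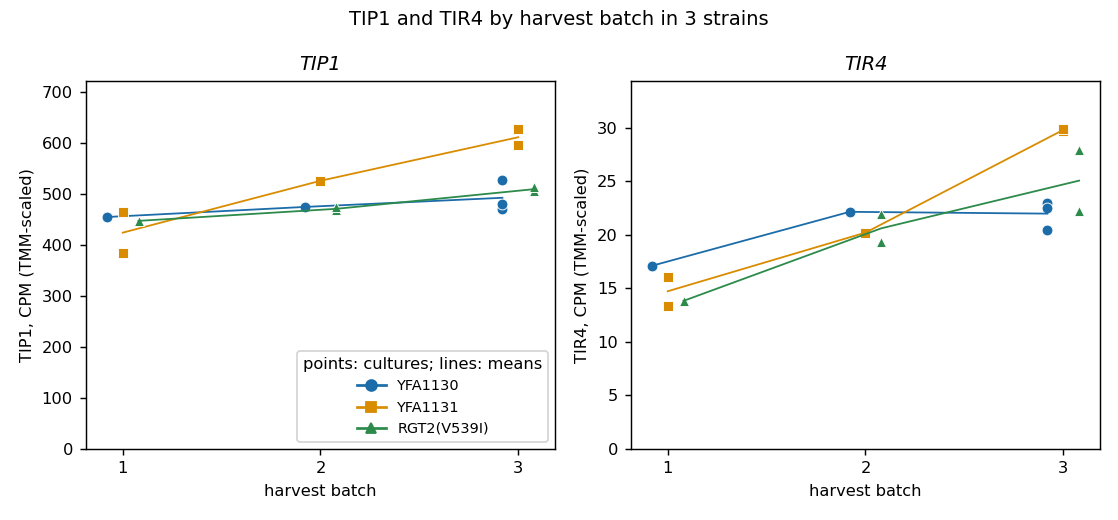
CPM of *TIP1* (left) and *TIR4* (right) by harvest batch in YFA1130, YFA1131 and *RGT2(V539I)*, with points for 15 cultures and lines through the means of a strain. In each of these strains the batch 1 cultures are lowest, at 384 to 464 CPM for *TIP1* and 13.4 to 17.1 CPM for *TIR4*.

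Regulators of genes known from low oxygen were measured as well, a list not confined to regulators of this family. Of 10 regulator genes, 1 fell and none rose in *OAF1(L63S)* against YFA1130, where 0.613% of all genes fell and 0.56% rose. This was *MGA2*, a membrane-bound activator of *OLE1* that senses lipid saturation, with a log2 fold change of -0.78 (SE 0.080, adjusted p = 1.88e-05 from edgeR). The value was -0.81 (adjusted p = 1.77e-08, edgeR) with both libraries against their labels left out, and -0.56 (adjusted p = 0.914) with all libraries and no surrogate variables. *MGA2* was at 101 to 128 CPM in replicates 1 to 4, at 289 CPM in the library labelled replicate 5, and at 190 to 229 CPM in YFA1130. In *OLE1(FAR)* it was at 281 to 315 CPM in 4 libraries and at 119 CPM in the library labelled replicate 2. The libraries that stood apart at *TIP1* stood apart at *MGA2* as well, in the same direction. *MGA2* was among the genes by which those libraries were found, so this is a description.

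*UPC2*, the activator of the anaerobic genes, was at 40.1 to 65.9 CPM over all libraries, and its log2 fold change was -0.05 in *OAF1(L63S)* (SE 0.056) and -0.05 in *RGT2(V539I)* (SE 0.058). Its paralog *ECM22*, which acts on sterol genes with oxygen present, had 0.02 (SE 0.050) and -0.15 (SE 0.052) in these contrasts. *ECM22* was the 1 regulator of 10 called between the wild types, where 0.158% of all genes were, and was higher in YFA1131 at 0.24 (SE 0.048, adjusted p = 0.0544 from edgeR), and at 0.30 (adjusted p = 0.00387) without the libraries against their labels. The repressor genes *ROX1* and *MOT3* had 0.12 (SE 0.065) and 0.03 (SE 0.065) in *OAF1(L63S)*, and 0.04 (SE 0.068) and -0.05 (SE 0.067) in *RGT2(V539I)*. *HAP1*, the heme-responsive regulator, had -0.11 (SE 0.044) and -0.04 (SE 0.045). None of these passed the FDR in either contrast, and the regulators as a list had a median log2 fold change of -0.02 in *OAF1(L63S)*, where that of all genes was -0.01.

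Of 9 other genes known from low oxygen, 1 rose in *OAF1(L63S)* (0.56% of all genes did), namely *OLE1* at 0.22 (SE 0.057, adjusted p = 0.086 from edgeR, and 0.068 without the libraries against their labels). None of the 9 passed the FDR in *RGT2(V539I)* or between the wild types. Between the wild types, *ANB1*, *HEM13*, *AAC3* and *AUS1* of these 9 genes had an unadjusted p under 0.05 by edgeR, where 9.73% of all genes did. Of the regulators, *UPC2*, *ECM22*, *TUP1* and *CYC8* did too. Each of these was higher in YFA1131, and the other genes of both lists were not under 0.05. Of 17 other cell wall protein genes, none passed the FDR in *OAF1(L63S)*, *RGT2(V539I)* or between the wild types, where the lowest adjusted p-values from edgeR were 0.849, 0.419 and 0.38. Between harvests, later minus batch 1, the fit over all libraries, in which 1.49% of genes were called, called *MGA2* at -1.01 (adjusted p = 0.000108, edgeR), *HMG2*, an HMG-CoA reductase gene, at -0.48 (adjusted p = 0.0239) and *OLE1* at 0.38 (adjusted p = 0.0429). Without the libraries against their labels, *OLE1* was at 0.45 (adjusted p = 0.00169), while *MGA2* at 0.09 and *HMG2* at 0.02 were not called (edgeR, adjusted p = 0.474 and 0.934). The aerobic wall protein genes *CWP1* and *CWP2* were at 15.2 to 67.5 CPM and 923 to 1362 CPM. *CWP1* had a log2 fold change of 0.14 (SE 0.20) and *CWP2* of 0.07 (SE 0.049) in *OAF1(L63S)*. Among 5 seripauperin genes, a subtelomeric family also known from anaerobic growth, 3 could be tested and none was called. *PAU5*, *PAU17* and *PAU23* were at 0.495 to 2.35 CPM.

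The genes whose log2 CPM ran most like that of *TIP1* over the 25 libraries, among 4970 genes with a mean of at least 10 CPM, were *PLB2*, *GDH3*, *IZH4*, *COS10* and *FAA4*. *PLB2* encodes a phospholipase B of the cell surface and had a Pearson r of 0.94 (Spearman's rho 0.94). *GDH3*, a glutamate dehydrogenase gene, had 0.94, *IZH4* 0.92, the subtelomeric *COS10* 0.92 and *FAA4*, an acyl-CoA synthetase gene, 0.91. The median over all these genes was 0.002. Libraries share strain, harvest and depth, so these values are a description. The 2 libraries that went against their labels enter them. Within the 15 libraries of YFA1130, YFA1131 and *RGT2(V539I)*, which hold neither, r was 0.75 for *PLB2*, 0.71 for *GDH3*, 0.61 for *IZH4*, 0.41 for *COS10* and 0.64 for *FAA4*.

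*PLB2* shows the likeness in single libraries. It was at 93 to 145 CPM in *OAF1(L63S)* replicates 1 to 4 and at 261 CPM in the library labelled replicate 5. In *OLE1(FAR)* it was at 238 to 255 CPM in 4 libraries and at 109 CPM in the library labelled replicate 2. Among the family itself, *TIR4* had r of 0.52 with *TIP1* over all 25 libraries and 0.86 over the 15 of the 3 strains, and *DAN4* had 0.54 and 0.24. *MGA2* had 0.89 and 0.21. Of the other regulators, *UPC2* had 0.59 and 0.75, *ECM22* 0.62 and 0.79, *HAP1* 0.67 and -0.003, and *ROX1* -0.40 and -0.70. *MOT3* had 0.21 and 0.48, *TUP1* 0.29 and 0.16, *CYC8* 0.40 and 0.16, *SPT23* 0.18 and 0.10, and *SUT1* 0.12 and 0.40.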

How the data were processed

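Per the labels, polyadenylated RNA of 25 cultures was sequenced on a NextSeq 550. The authors trimmed reads with Trimmomatic 0.38 and estimated counts per gene with kallisto against R64 transcripts. The deposited values are these estimated counts, not normalized, and 6.46% were not whole (tolerance 1e-06). They were rounded here. CPM are TMM-scaled, and log2 CPM used a prior count of 0.5. Counts over 31-base stretches, codons and motifs came from the RefSeq R64 sequence.

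One fit over all libraries with edgeR 4.0.16 in R 4.3.3 (quasi-likelihood test) held genotype, harvest batch, RNA isolation batch, library preparation batch (2 levels) and 2 surrogate variables (sva 3.50.0), the terms the study's methods give. Batches came from the study's sample table. Genes with an estimated count above 0 in every library were tested (5713), with Benjamini-Hochberg adjustment over them and a 10% FDR. The fit was tested on simulated data. DESeq2 1.42.0, other scaling, filters, terms and sets of libraries were tried as alternatives, and no pair of replicates agreed within sampling noise (chi-square per degree of freedom 5.28 to 52.1 over 50 pairs).

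Isolation batches held 1 culture of each strain and so number the replicates. Deviations of same-numbered libraries from their strain means correlated from -0.39 to 0.46 over 20 pairs, and 10 exceeded 0.1. The family and the gene lists were chosen with earlier results of these data known. All members were named, and of the other lists the genes past the FDR plus *UPC2*, *ECM22*, *MGA2*, *ROX1*, *MOT3*, *HAP1*, *CWP1*, *CWP2* and the 5 genes most like *TIP1*. *PAU5*, *PAU17*, *PAU23*, *ANB1*, *HEM13*, *AAC3*, *AUS1*, *TUP1*, *CYC8*, *SPT23*, *SUT1* and the 5 genes least like *TIP1* were named after their values were seen. For mating type *MFA1* and *MF(ALPHA)1* were set first, and *STE2* and *STE3* were added to them. *OLE1(FAR)* against YFA1130, which picked *TIP1*, is described by fitted values with no p or call.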

Additional observations from a re-analysis of the deposited data

Results flagged for a closer look

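Within each group of 5 cultures the highest or lowest library was compared with the rest, for the 6 tested members and for *MGA2*, *IZH4* and *POX1*. Among the members 1 library lay far from the others by Dixon's test in 2 of 30 groups, where chance gives about 1 in 20. *TIP1* in the library labelled *OAF1(L63S)* replicate 5 was at 633 CPM, with the others at 297 to 360 CPM. *TIR1* in YFA1130 replicate 5 was at 1.20 CPM, with the others at 0.771 to 0.842 CPM, a gap of a few counts.

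The others were at the genes by which the libraries against their labels were found, and so are a description. *MGA2* was at 289 CPM in *OAF1(L63S)* replicate 5 (others 101 to 128 CPM) and at 119 CPM in *OLE1(FAR)* replicate 2 (others 281 to 315 CPM). *IZH4* was at 47.6 CPM in the first (others 2.63 to 3.67 CPM) and 2.43 CPM in the second (others 45.3 to 50.7 CPM). *POX1* was at 1.58 CPM in the first (others 17 to 22.8 CPM) and 28.4 CPM in the second (others 0.419 to 2.00 CPM).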

How the results depend on the processing

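The fall of *TIP1* in *OAF1(L63S)* was the 1 call among members in a tested contrast between strains. The number of members called there was 0 without surrogate variables, 0 with genotype alone and 0 in a fit restricted to the strains compared. These fits keep the library labelled *OAF1(L63S)* replicate 5, and they called 0.175%, 0.0525% and 0.0693% of all genes. The number was 1 in the other 10 alternatives, where 0.416% to 2.21% of all genes were called, and in each of 10 fits that left out 1 library. Over those 10 fits the log2 fold change of *TIP1* ran from -0.49 to -0.36, with adjusted p of at most 0.0132 (edgeR), and over the 13 alternatives it ran from -0.50 to -0.28. In *OLE1(FAR)*, *TIP1* ran from 0.39 to 0.51 with each library left out, and from 0.21 (no surrogate variables) to 0.44 over the alternatives.

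The replicate block is the RNA isolation batch, a term of the study's own model. With no replicate block the fall of *TIP1* in *OAF1(L63S)* was -0.43 (adjusted p = 3.26e-05 from edgeR), and 1 member was called between batches 3 and 2, *TIP1* at -0.24 (adjusted p = 0.029), with 0.613% of all genes called. Without surrogate variables 1 member was also called there, *TIR4* at 0.34 (adjusted p = 0.0963), with 3.29% of all genes called. With no libraries against their labels and no surrogate variables, 2 members were called between batch 1 and later harvests. Leaving out the block changed no other call among members.

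Of 343 values of members under alternatives in tested contrasts, 295 kept their sign and side of the threshold, 3 lost the call, 6 gained one and 39 changed sign. The *TIP1* sign across harvests apart, these sign changes were of differences that passed no test in the main analysis. Without surrogate variables, the log2 difference was -0.12 for *TIP1* and -0.024 for *DAN4* in *RGT2(V539I)*, 0.056 for *TIP1* and 0.021 for *DAN4* in later harvests against batch 1, and 0.35 for *TIP1* and 0.043 for *TIR3* in batch 3 against 2. With genotype alone (and harvest batch, for harvest contrasts), the log2 difference was -0.11 for *TIP1* and -0.078 for *DAN4* in *RGT2(V539I)*, 0.027 for *TIP1* in later harvests against batch 1, and 0.20 for *TIP1* and 0.0040 for *TIR3* in batch 3 against 2. Without both libraries against their labels, the log2 difference was -0.049 for *TIP1* in *RGT2(V539I)*, 0.071 for *TIR1* in *OAF1(L63S)*, 0.094 for *TIP1* in later harvests against batch 1, and 0.042 for *TIP1* in batch 3 against 2. Without those libraries and without surrogate variables, the log2 difference was -0.064 for *TIP1* and -0.0057 for *DAN4* in *RGT2(V539I)*, 0.22 for *TIP1* and 0.071 for *DAN4* in later harvests against batch 1, and 0.11 for *TIP1* in batch 3 against 2. In a fit restricted to the strains compared, the log2 difference was -0.14 for *TIP1* and -0.060 for *DAN4* in *RGT2(V539I)*. In harvest batch 3 alone, the log2 difference was -0.26 for *TIP1*, -0.060 for *TIR3* and -0.23 for *DAN4* in *RGT2(V539I)*, and 0.10 for *TIR1* and -0.0011 for *TIR2* in *OAF1(L63S)*. With at least 10 counts required in every library, the log2 difference was 0.0029 for *TIR4* in *RGT2(V539I)*, and -0.039 for *TIP1* in YFA1131 against YFA1130. With 4 library preparation batches, the log2 difference was 0.017 for *TIR4* in *RGT2(V539I)*, 0.16 for *TIR1* in *OAF1(L63S)*, and -0.027 for *DAN4* in YFA1131 against YFA1130. With both wild types as control, the log2 difference was 0.015 for *TIR4* in *RGT2(V539I)*, and -0.081 for *TIR2* in *OAF1(L63S)*. With no replicate block, the log2 difference was -0.059 for *TIP1* in YFA1131 against YFA1130, -0.021 for *TIR2* and -0.033 for *TIR3* in later harvests against batch 1, and -0.064 for *TIR2* and -0.10 for *DAN4* in batch 3 against 2.

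With each library left out in turn, differences that did not pass the FDR changed sign in some fits. For batch 3 against 2, they ran for *DAN4* from -0.023 to 0.11, *TIR2* from -0.048 to 0.13 and *TIR3* from -0.18 to 0.10. For *RGT2(V539I)*, they ran for *DAN4* from -0.035 to 0.13, *TIP1* from -0.017 to 0.10, *TIR3* from -0.022 to 0.16 and *TIR4* from -0.093 to 0.083. For YFA1131 against YFA1130, they ran for *TIP1* from -0.036 to 0.13 and *TIR3* from -0.015 to 0.26. For *OAF1(L63S)*, they ran for *TIR1* from -0.34 to 0.087, *TIR2* from -0.024 to 0.15 and *TIR3* from -0.067 to 0.18. For later harvests against batch 1, they ran for *TIR2* from -0.057 to 0.14 and *TIR3* from -0.18 to 0.20.

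Counts over all genes moved as well. Over the alternatives they ran from 1 to 104 for *RGT2(V539I)* (61 in the main fit), 3 to 126 for *OAF1(L63S)* (67), 0 to 71 between the wild types (9), 79 to 2160 between batch 1 and later harvests (85) and 1 to 188 between batches 3 and 2 (1). With each library left out, the count for *RGT2(V539I)* ran from 15 to 52. It was 33, 18 and 24 without *RGT2(V539I)* replicates 1, 2 and 4, and 37, 15 and 24 without YFA1131 replicates 3, 4 and 5. For *OAF1(L63S)* it ran from 43 (without *OAF1(L63S)* replicate 4) to 72. Between the wild types it was 5, 21 and 32 without YFA1130 replicates 2, 3 and 5, and 5 and 16 without YFA1131 replicates 2 and 3. Between batch 1 and later harvests it was 24 without *OAF1(L63S)* replicate 5 and at most 99 otherwise, and between batches 3 and 2 it ran from 0 to 4. The causes were not tested. Depth limits *TIR1* and *DAN1*, at no more than 20 and 7 counts per library, and a change of *TIR1* by less than its interval was not detectable.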

Other observations

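The genes that ran most opposite to *TIP1* over the 25 libraries, among 4970 genes, were *PHO84*, a phosphate transporter gene, *ANT1*, a peroxisomal nucleotide carrier gene, *ECI1*, a peroxisomal isomerase gene, *GTT1*, a glutathione transferase gene, and *MSC6*. Their Pearson r was -0.88, -0.85, -0.83, -0.80 and -0.79. Within the 15 libraries of YFA1130, YFA1131 and *RGT2(V539I)* it was -0.58, -0.42, -0.79, -0.71 and -0.75. These are descriptions over libraries that share strains and harvests, with no test.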
